A study of Homo sapiens with 8 samples.

Results

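The subject is a set of 10 genes at the output end of the Hippo pathway: the coactivators YAP1 and WWTR1 (the gene of TAZ), their DNA-binding partner TEAD1, the target genes CTGF, CYR61, THBS1 and ANKRD1, the angiomotins AMOTL1 and AMOTL2, and the kinase LATS2. They were taken by symbol from a count table of 23368 gene symbols, and all 10 were found and passed the filter on low counts that left 13395 genes. THBS1 was included with its opposite directions under siE2 and siE3 already known, so its values are described without a test, apart from siE1 against siC. The counts below therefore cover the other 9 genes.

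RNA was sequenced from MDA-MB-231 cells, a long-used line from a triple-negative human breast cancer. They had been transfected with siE1, siE2 or siE3, which are 3 different siRNAs against the mRNA of the orphan nuclear receptor ERRα (gene ESRRA), or with the control siRNA siC. Each siRNA had 2 libraries, 8 in all, with 21835995 to 25880548 counts per library. All cells received an siRNA and the reagent INTERFERin, and untransfected cells were not analysed here. The labels do not say whether the libraries of a group came from separate cultures, so each p-value rests on differences between libraries that may be technical only. Levels are CPM, library-scaled counts with TMM factors, means are given ± SD with n = 2 per group, and fold changes are log2 values with SE from edgeR. Calls use a Benjamini-Hochberg adjusted p below 0.05 over all 13395 genes. In bulk RNA, a change in the share of cells that express a gene and a change in RNA per cell cannot be told apart.

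ESRRA had 10.3 and 10.5 CPM with siE1, 8.86 and 7.25 CPM with siE2 and 8.55 and 8.31 CPM with siE3, against 62.9 and 64.8 CPM with siC, so 16.3%, 12.6% and 13.2% of the control level remained. Marker levels, unlike those of ESRRA, are scaled by library total alone, without TMM factors. The libraries held the mesenchymal marker VIM at 3230 CPM or more and CD44 at 604 CPM or more. ESR1, PGR and CDH1, which this line is known to lack, had at most 3 counts in any library. ERBB2, EPCAM and GATA3, also listed beforehand as low in this line, were detected. They stood at 51.6 to 68.5 CPM, 9.12 to 12.6 CPM and 2.54 to 4.41 CPM. Of the markers of blood cells, fibroblasts and endothelium, PTPRC, CD3E, DCN, LUM and COL1A2 had at most 3 counts, PECAM1, CDH5 and VWF had at most 21, COL1A1 stood at 4.08 to 10.1 CPM and CD68 at 213 to 432 CPM.

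As background, the Hippo pathway is a kinase chain in which STK3 and STK4 (MST2 and MST1), with the scaffold SAV1, activate LATS1 and LATS2, and these phosphorylate YAP and TAZ and keep them out of the nucleus. Unphosphorylated YAP and TAZ bind TEAD factors and raise transcription of genes such as CTGF, CYR61 and ANKRD1. AMOTL2 and LATS2 restrain YAP and are themselves targets, which makes a negative feedback. In breast cancer cells, including MDA-MB-231, YAP and TAZ are known for roles in growth and invasion. Their activity is set largely by phosphorylation and location in the cell, which mRNA counts do not measure.

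TEAD factors recognise the letters GGAATG, or CATTCC read on the other strand. RefSeq promoter windows of 300 bases (250 before to 50 after the start, GRCh38.p14) were given for 8 of the 10 genes, in 10 windows. TEAD1 and CYR61 had no window. The hexamer was searched on both strands. CTGF held 3 copies, at -169, -104 and -95 from the start, and ANKRD1 held 2, at -220 and -128. AMOTL2 held 1 in the second of its windows, THBS1 1 at -46, YAP1 1 at -162 and LATS2 1 at 10 bases after the start, and no match stood in the windows of WWTR1 and AMOTL1. Among all 35116 windows, 4928 held the hexamer on either strand. Whether the hexamer goes with the direction of change was not tested. The stretches before the start are shown for 4 target genes, with YAP1 left out, and the capitals mark the hexamer. Written 5′ to 3′ along the gene's strand, on GRCh38.p14, they read:
CTGF, chr6:131951422-131951581, minus strand: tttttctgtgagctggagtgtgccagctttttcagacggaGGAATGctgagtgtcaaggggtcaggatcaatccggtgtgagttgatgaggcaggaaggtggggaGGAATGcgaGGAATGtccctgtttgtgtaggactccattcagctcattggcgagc
ANKRD1, chr10:90921170-90921337, minus strand: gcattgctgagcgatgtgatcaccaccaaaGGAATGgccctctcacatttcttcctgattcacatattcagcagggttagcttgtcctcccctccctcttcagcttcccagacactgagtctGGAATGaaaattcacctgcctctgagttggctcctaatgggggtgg
AMOTL2, chr3:134374471-134374556, minus strand: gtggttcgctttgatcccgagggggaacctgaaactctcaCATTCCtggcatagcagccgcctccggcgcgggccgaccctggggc
THBS1, chr15:39580993-39581078, plus strand: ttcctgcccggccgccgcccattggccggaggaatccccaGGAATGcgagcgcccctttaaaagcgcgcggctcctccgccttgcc
These matches are descriptions of letters. Binding was not measured in this study.

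TEAD1 and WWTR1 rose with each siRNA, CTGF and AMOTL2 fell with each, and LATS2 rose with siE1 and siE3. CYR61 fell with siE3, and ANKRD1 fell with siE1 and siE3. Of the 9 genes, 3 rose and 4 fell with siE1, where 24.5% of all tested genes were called higher and 25.8% lower. With siE2, 2 rose and 2 fell, against 27.9% higher and 28.5% lower among all genes. With siE3, 4 rose and 4 fell, against 21.3% and 20.8%. In the average of the 3 siRNAs, 3 rose and 5 fell, against 23.4% and 27.7%. The median log2 fold change of the 9 genes was -0.06, 0.00 and -0.08 with siE1, siE2 and siE3, and -0.12 in the average, beside medians over all genes of -0.01, 0.01, 0.00 and -0.01. The 3 comparisons with siC share its libraries.

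**Figure D1:**
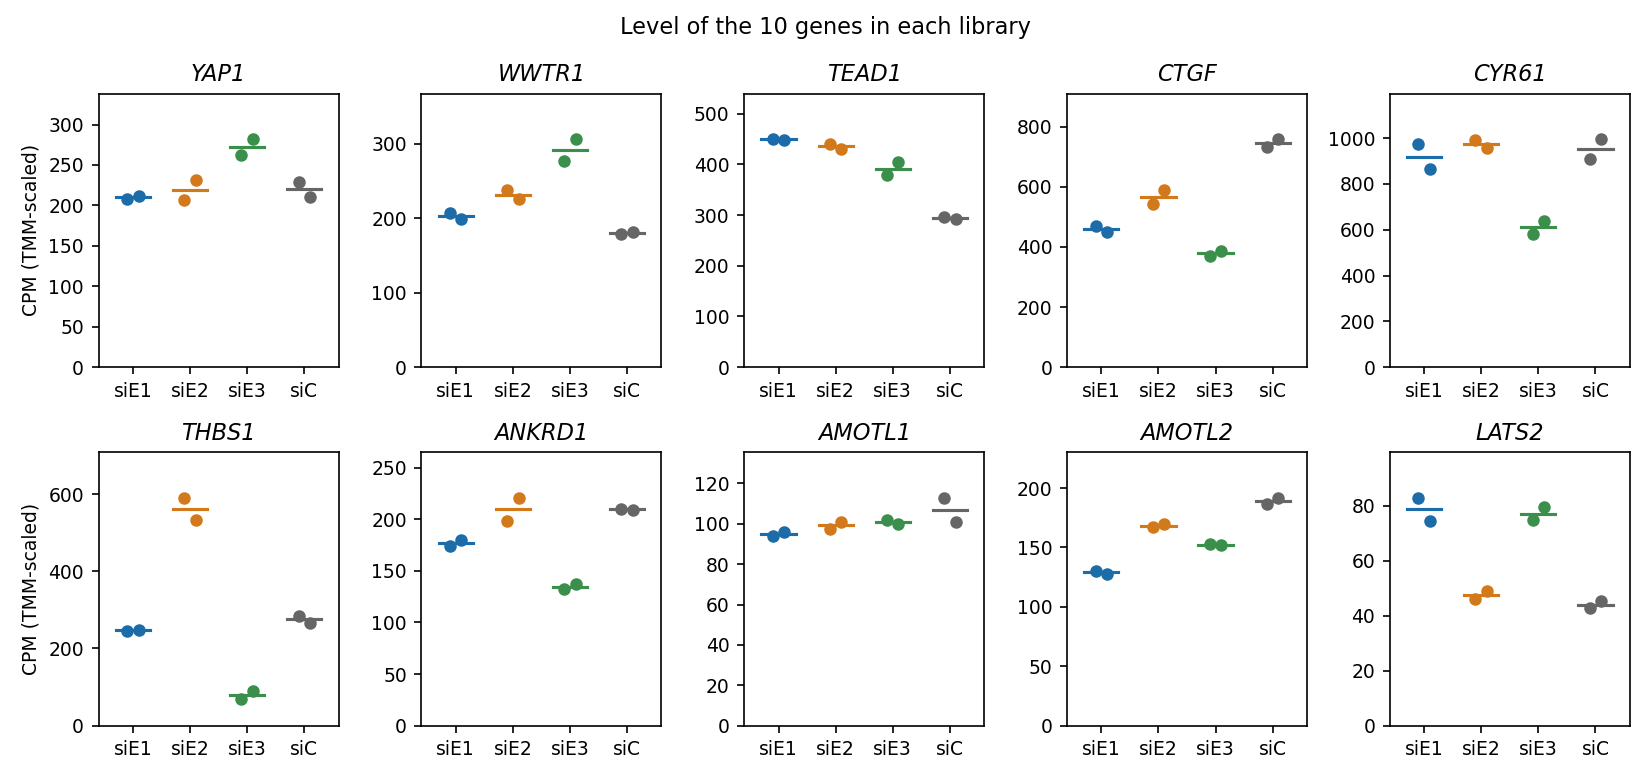
Level of each of the 10 genes in CPM (TMM-scaled, linear axis from 0) in the 2 libraries of siE1, siE2, siE3 and siC. Points are libraries and bars are group means. CTGF libraries lie at 369 to 590 CPM with the ESRRA siRNAs and at 734 and 759 CPM with siC, whereas THBS1 spans 69.6 CPM with siE3 to 591 CPM with siE2.

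The coactivators differed from each other. WWTR1, which encodes TAZ, had 207 and 199 CPM with siE1, 238 and 225 CPM with siE2 and 277 and 306 CPM with siE3, against 179 and 182 CPM with siC. All 6 libraries of the ESRRA siRNAs were above both siC libraries, and siE3 was the highest group. The log2 fold change was 0.17 (SE 0.0523, edgeR adjusted p = 0.014) with siE1, 0.36 (SE 0.0522, edgeR adjusted p = 3.0e-05) with siE2 and 0.69 (SE 0.0520, edgeR adjusted p = 6.4e-08) with siE3. The siE1 call did not hold without siC replicate 1 (edgeR adjusted p = 0.087) or without siE1 replicate 1 (0.11), and its adjusted p ran from 0.0034 to 0.11 over 16 alternatives. WWTR1 was also lower with siE1 than with siE3 by a log2 difference of -0.52 (SE 0.0517, edgeR adjusted p = 8.7e-07) and with siE2 than with siE3 by -0.33 (SE 0.0514, edgeR adjusted p = 7.5e-05). An antisense gene, WWTR1-AS1, had 1 to 9 counts.

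YAP1 had 208 and 212 CPM with siE1, 207 and 232 CPM with siE2 and 262 and 282 CPM with siE3, against 229 and 211 CPM with siC. Only the siE3 libraries stood apart, above the other 6. YAP1 rose with siE3 by 0.31 (SE 0.0586, edgeR adjusted p = 5.6e-04). With siE1 it was at -0.06 (95% interval -0.19 to 0.06, edgeR adjusted p = 0.39) and with siE2 at 0.00 (-0.13 to 0.12, edgeR adjusted p = 0.98). YAP1 was higher with siE3 than with either other ESRRA siRNA, since siE1 against siE3 gave -0.37 (SE 0.0586, edgeR adjusted p = 9.2e-05) and siE2 against siE3 gave -0.31 (SE 0.0586, edgeR adjusted p = 4.3e-04).

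Within each library the balance of the coactivators was shifted toward WWTR1. The ratio of WWTR1 to YAP1 counts, which scaling between libraries does not touch, was 0.995 and 0.937 in the siE1 libraries, 1.15 and 0.968 in the siE2 libraries and 1.06 and 1.08 in the siE3 libraries, against 0.780 and 0.866 in the siC libraries. The 6 values with ESRRA siRNAs all lay above the siC values. A ratio of raw counts does not correct for transcript length, so it compares libraries and not the levels of the 2 genes.

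TEAD1, a DNA-binding factor that recruits YAP and TAZ, had 450 and 449 CPM with siE1, 440 and 431 CPM with siE2 and 379 and 405 CPM with siE3, against 296 and 292 CPM with siC. No library of an ESRRA siRNA overlapped the controls. The log2 fold changes were 0.61 (SE 0.0430, edgeR adjusted p = 2.0e-08), 0.57 (SE 0.0430, edgeR adjusted p = 3.4e-08) and 0.41 (SE 0.0431, edgeR adjusted p = 1.8e-06) with siE1, siE2 and siE3. TEAD1 was higher with siE1 than with siE3 by 0.20 (SE 0.0426, edgeR adjusted p = 0.0014). The excess of TEAD1 with siE2 over siE3 was 0.15 (SE 0.0427, edgeR adjusted p = 0.0083), which did not pass without siE2 replicate 1 (0.075) or siE3 replicate 1 (0.069), within a range of 6.9e-04 to 0.075 over 16 alternatives.

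Of the other TEAD genes, TEAD4 moved opposite to TEAD1 and TEAD2 the same way. TEAD4 averaged 74.8 ± 1.25 CPM with siE1, 73.4 ± 0.906 CPM with siE2 and 72.3 ± 0.237 CPM with siE3, against 97.7 ± 2.64 CPM with siC. It fell with each siRNA, to log2 fold changes of -0.38, -0.41 and -0.43 (edgeR adjusted p = 1.3e-05, 4.9e-06 and 5.7e-06). TEAD2 rose by 0.47 with siE1 and 0.32 with siE2 (edgeR adjusted p = 1.5e-04 and 0.0033). Its siE3 value of 0.23 (edgeR adjusted p = 0.033) did not pass without siC replicate 1 (0.05), siC replicate 2 (0.19) or siE3 replicate 1 (0.43). TEAD3 was at 0.22 with siE2 (edgeR adjusted p = 0.029). This call was lost without siC replicate 1, siC replicate 2 or siE2 replicate 2, where the value was 0.24, 0.20 and 0.14. With siE1 and siE3 TEAD3 was at 0.18 and 0.05 (edgeR adjusted p = 0.068 and 0.64). The siE1 value passed with only the groups compared (edgeR adjusted p = 0.024). For TEAD3 the average gave 0.15 (edgeR adjusted p = 0.067), which passed with no filter on low counts (0.042). The average was 0.19 without siE3 replicate 2.

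**Figure D2:**
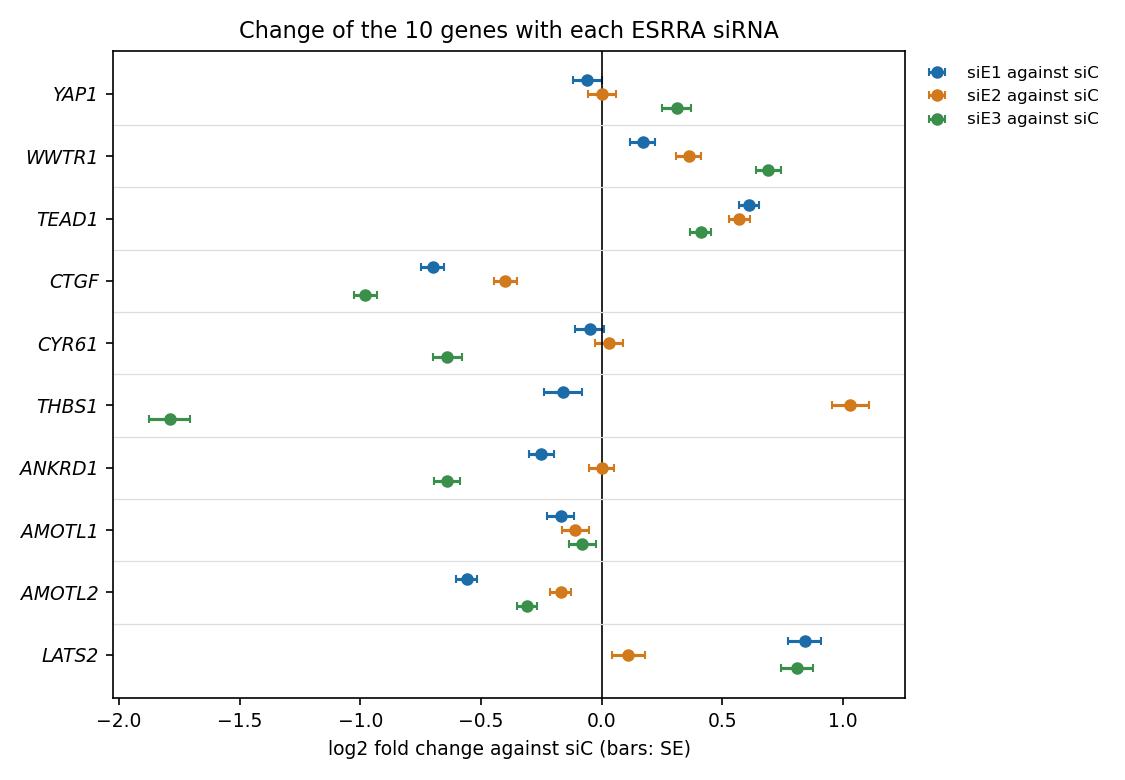
Log2 fold change against siC (horizontal axis) of the 10 genes with siE1, siE2 and siE3, with bars of 1 SE and n = 2 libraries per group. TEAD1 and WWTR1 lie right of 0 and CTGF and AMOTL2 left of 0 with each siRNA, while LATS2 is at 0.84 and 0.81 with siE1 and siE3 and at 0.11 with siE2.

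Among the target genes CTGF, a secreted matricellular protein of the CCN family and a much used readout of YAP and TAZ activity, fell with each siRNA. It had 469 and 451 CPM with siE1, 544 and 590 CPM with siE2 and 369 and 388 CPM with siE3, against 734 and 759 CPM with siC. The groups did not overlap, and siE3 was lowest and siE2 nearest to the control. The log2 fold change was -0.70 (SE 0.0471, edgeR adjusted p = 1.2e-08) with siE1, -0.40 (SE 0.0469, edgeR adjusted p = 3.5e-06) with siE2 and -0.98 (SE 0.0475, edgeR adjusted p = 7.2e-10) with siE3. The siRNAs also differed from each other, with siE1 below siE2 by a log2 difference of -0.30 (SE 0.0471, edgeR adjusted p = 5.7e-05) and siE2 above siE3 by 0.58 (SE 0.0474, edgeR adjusted p = 1.1e-07).

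CYR61, the other CCN family target, did not share this pattern. It had 973 and 864 CPM with siE1, 993 and 957 CPM with siE2 and 583 and 639 CPM with siE3, against 910 and 996 CPM with siC. The siE1 and siE2 libraries overlapped the controls, and both siE3 libraries were below all others. CYR61 fell with siE3 to a log2 change of -0.64 (SE 0.0600, edgeR adjusted p = 6.3e-07), and was at -0.05 with siE1 (95% interval -0.18 to 0.07, edgeR adjusted p = 0.47) and 0.03 with siE2 (-0.09 to 0.16, edgeR adjusted p = 0.66). The average of the 3 siRNAs was -0.22 (SE 0.0481, edgeR adjusted p = 0.0013), which rests on siE3 and did not pass without siC replicate 2 (0.056), the highest of 15 alternatives that ran down to 2.9e-07. The ratio of CTGF to CYR61 counts was 0.482 and 0.522 in the siE1 libraries, 0.548 and 0.616 in the siE2 libraries and 0.632 and 0.607 in the siE3 libraries, against 0.807 and 0.761 in the siC libraries. Every library of an ESRRA siRNA thus had less CTGF per CYR61 count than either control, siE3 included, although siE3 lowered both genes.

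**Figure D3:**
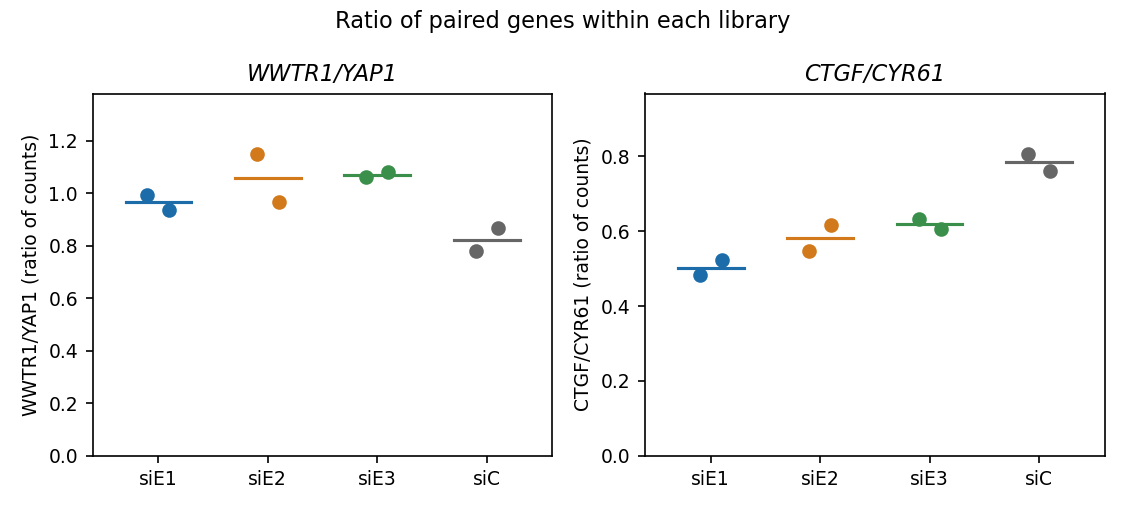
Ratio of counts within each library, WWTR1 to YAP1 (left) and CTGF to CYR61 (right), on linear axes from 0, with points for libraries and bars for group means. The WWTR1 to YAP1 ratio is 0.937 to 1.15 with ESRRA siRNAs and 0.780 and 0.866 with siC, and the CTGF to CYR61 ratio is 0.482 to 0.632 against 0.807 and 0.761.

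ANKRD1, an ankyrin repeat protein known from heart muscle and a target of YAP in many cell types, had 174 and 180 CPM with siE1, 198 and 221 CPM with siE2 and 132 and 137 CPM with siE3, against 210 and 209 CPM with siC. The siE2 libraries lay on either side of the controls, and those of siE1 and siE3 lay below them. It fell with siE3 to a log2 change of -0.64 (SE 0.0531, edgeR adjusted p = 1.7e-07) and with siE1 to -0.25 (SE 0.0522, edgeR adjusted p = 0.0011), and was at 0.00 with siE2 (95% interval -0.11 to 0.11, edgeR adjusted p = 0.99). ANKRD1 was higher with siE2 than with siE3 by 0.64 (SE 0.0530, edgeR adjusted p = 1.3e-07).

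THBS1, or thrombospondin-1, a secreted matrix protein that restrains angiogenesis and activates latent TGF-β, spanned the widest range of fold changes of the 10. It had 246 and 249 CPM with siE1, 591 and 532 CPM with siE2 and 69.6 and 89.5 CPM with siE3, against 285 and 266 CPM with siC. The siE2 libraries stood above and the siE3 libraries below all others. The log2 fold changes were 1.03 (SE 0.0779) with siE2 and -1.79 (SE 0.0844) with siE3, a level 204% and 28.9% of the control, and the mean with siE2 was 7.05-fold that with siE3. With siE1 it was -0.16 (SE 0.0785, edgeR adjusted p = 0.11), which passed in 4 of 16 alternatives (0.012 to 0.017), and the authors' deposited table gives an adjusted p of 0.036. The average over siRNAs, -0.31, is the mean of values with opposite signs. FSIP1, a gene on the opposite strand that overlaps THBS1 in GENCODE v29, had 10 to 34 counts per library, against 1523 or more for THBS1. Whether the counting used strand is not stated in the labels or notes, and without strand the reads of a gene and its antisense partner cannot be told apart.

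Over 10501 genes with a mean of at least 5 CPM, the pattern of THBS1 over the 8 libraries was most like that of CD46 (Pearson r of log2 CPM 0.9961), CITED2 (0.9876), C14orf149 (0.9870), SLAIN2 (0.9866) and TSPAN3 (0.9847). CD46, a complement regulator, averaged 159, 215 and 94.6 CPM with siE1, siE2 and siE3 and 162 CPM with siC, the same order as THBS1 over a narrower span. The genes most like CTGF were TP53BP2 (0.9827), SCO1 (0.9822), PSMD5 (0.9820), CCNJ (0.9802) and SOLH (0.9781). TP53BP2, which encodes the p53-binding protein ASPP2, averaged 52.3, 72.6 and 48.0 CPM with siE1, siE2 and siE3 and 92.5 CPM with siC. The 8 points share 4 groups, so such values describe likeness of group means and carry no test.

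The regulators of the set also split. LATS2, a kinase that inactivates YAP and TAZ, had 82.9 and 74.5 CPM with siE1, 46.2 and 48.8 CPM with siE2 and 74.8 and 79.4 CPM with siE3, against 42.6 and 45.2 CPM with siC. The siE1 and siE3 libraries overlapped each other and lay well above the rest. LATS2 rose by 0.84 (SE 0.0666, edgeR adjusted p = 7.1e-08) with siE1 and 0.81 (SE 0.0669, edgeR adjusted p = 1.6e-07) with siE3. With siE2 it was at 0.11 (SE 0.0692, edgeR adjusted p = 0.18), and siE2 lay below siE3 by -0.70 (SE 0.0662, edgeR adjusted p = 5.5e-07). The siE1 and siE3 values differed by 0.03 (95% interval -0.11 to 0.16, edgeR adjusted p = 0.75).

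AMOTL2, an angiomotin that binds YAP and holds it at junctions and in the cytoplasm, had 130 and 128 CPM with siE1, 167 and 170 CPM with siE2 and 153 and 152 CPM with siE3, against 187 and 192 CPM with siC. No groups overlapped. It fell to a log2 change of -0.56 (SE 0.0433, edgeR adjusted p = 5.8e-08) with siE1, -0.17 (SE 0.0428, edgeR adjusted p = 0.0032) with siE2 and -0.31 (SE 0.0431, edgeR adjusted p = 3.3e-05) with siE3. The siE1 level was lower than that of siE2 by a log2 difference of -0.39 (SE 0.0435, edgeR adjusted p = 2.0e-06) and of siE3 by -0.25 (SE 0.0437, edgeR adjusted p = 2.8e-04).

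AMOTL1, its close relative, had small fold changes. It had 94.0 and 95.8 CPM with siE1, 97.5 and 101 CPM with siE2 and 102 and 100 CPM with siE3, against 113 and 101 CPM with siC. The siE1 libraries lay below both controls, and those of siE3 overlapped them. Its log2 fold changes were -0.17 (SE 0.0553, edgeR adjusted p = 0.019) with siE1, -0.11 (SE 0.0553, edgeR adjusted p = 0.11) with siE2 and -0.08 (SE 0.0553, edgeR adjusted p = 0.27) with siE3. Without siC replicate 2 the siE2 value was -0.19 and passed (edgeR adjusted p = 0.021). The siE1 value did not pass in the authors' deposited table (adjusted p = 0.17). It also did not pass without siC replicate 1, where it was -0.09 (edgeR adjusted p = 0.25), or without siE1 replicate 1 (0.09) or siE1 replicate 2 (0.054), in a range of 0.0044 to 0.25 over 16 alternatives. In the average it was -0.12 (SE 0.0449, edgeR adjusted p = 0.038), but -0.04 without siC replicate 1 (0.59), and not called with the replicate number as a block (0.059), over a range of 0.0091 to 0.59.

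The differences between siRNAs were tested directly. Of the 9 genes, 5 were called for siE1 against siE2, where 57.1% of all genes were called, 7 for siE1 against siE3, where 48.7% were, and 8 for siE2 against siE3, where 48.5% were. ESRRA itself was higher with siE1 than with siE2 by 0.37 (SE 0.108, edgeR adjusted p = 0.0092). It was also higher with siE1 than with siE3, by 0.30 (SE 0.108, edgeR adjusted p = 0.031). For siE2 against siE3 ESRRA differed by -0.06 (SE 0.113, edgeR adjusted p = 0.67). In that comparison CTGF, CYR61 and ANKRD1 were higher with siE2 by 0.58, 0.67 and 0.64. LATS2, YAP1 and WWTR1 were lower with siE2 by -0.70, -0.31 and -0.33. TEAD1 and AMOTL2 were higher with siE2 by 0.15 and 0.14. Over 27 gene and siRNA pairs against siC, 19 were called here and 18 had an adjusted p below 0.05 in the authors' deposited table, all 18 among the 19.

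A wider set of target genes was read from a signature of 22 genes described elsewhere as YAP and TAZ targets in cancers, which includes AMOTL2, LATS2, CTGF, CYR61 and ANKRD1. All 22 were tested, and they did not move as a block. With siE1 9 rose and 7 fell (median 0.06), with siE2 10 rose and 4 fell (median 0.09), and with siE3 7 rose and 11 fell (median -0.16), beside the shares of all genes given above. Without the 5 genes already described, the medians of the other 17 were 0.13, 0.57 and -0.12. For siE2 against siE3, 16 of the 22 were higher with siE2 and 4 lower, with a median of 0.50 beside 0.00 over all genes. Among all genes, 48.5% were called in this comparison, a share that counts both directions. Without the 5 genes already described, 12 of the other 17 were higher with siE2 and 3 lower, with a median of 0.48.

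CRIM1, a transmembrane protein that binds BMPs, fell like CTGF with each siRNA to log2 fold changes of -0.80, -0.71 and -0.28 (edgeR adjusted p = 3.5e-09, 9.5e-09 and 2.1e-04 with siE1, siE2 and siE3). The receptor tyrosine kinase AXL rose by 0.43, 0.65 and 0.27 (edgeR adjusted p = 3.0e-06, 2.5e-08 and 3.8e-04) and the ectonucleotidase NT5E by 0.30, 0.57 and 0.52 (edgeR adjusted p = 1.3e-05, 9.8e-09 and 5.6e-08). F3, or tissue factor, which starts blood clotting, averaged 389 ± 17.6 CPM with siE1 and 294 ± 4.20 CPM with siE2, against 177 ± 11.9 CPM with siC, and had 154 and 170 CPM in the siE3 libraries. It rose by 1.14 with siE1 and 0.74 with siE2 (edgeR adjusted p = 4.6e-10 and 3.8e-08). With siE3 it was at -0.12 (edgeR adjusted p = 0.098), which passed without siC replicate 1 (0.033) or siE3 replicate 2 (0.024).

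TGFB2, a TGF-β ligand, and IGFBP3, which binds insulin-like growth factors, changed sign between siRNAs. TGFB2 averaged 56.8 ± 0.0774 CPM with siE1, 136 ± 8.31 CPM with siE2 and 24.1 ± 2.71 CPM with siE3, against 36.1 ± 1.36 CPM with siC. The siE2 group was the highest and the siE3 group the lowest, as for THBS1. IGFBP3 averaged 80.1 ± 2.15 CPM with siE1, 352 ± 1.22 CPM with siE2 and 129 ± 2.84 CPM with siE3, against 201 ± 5.07 CPM with siC, so that siE2 alone stood above the control.

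**Figure D4:**
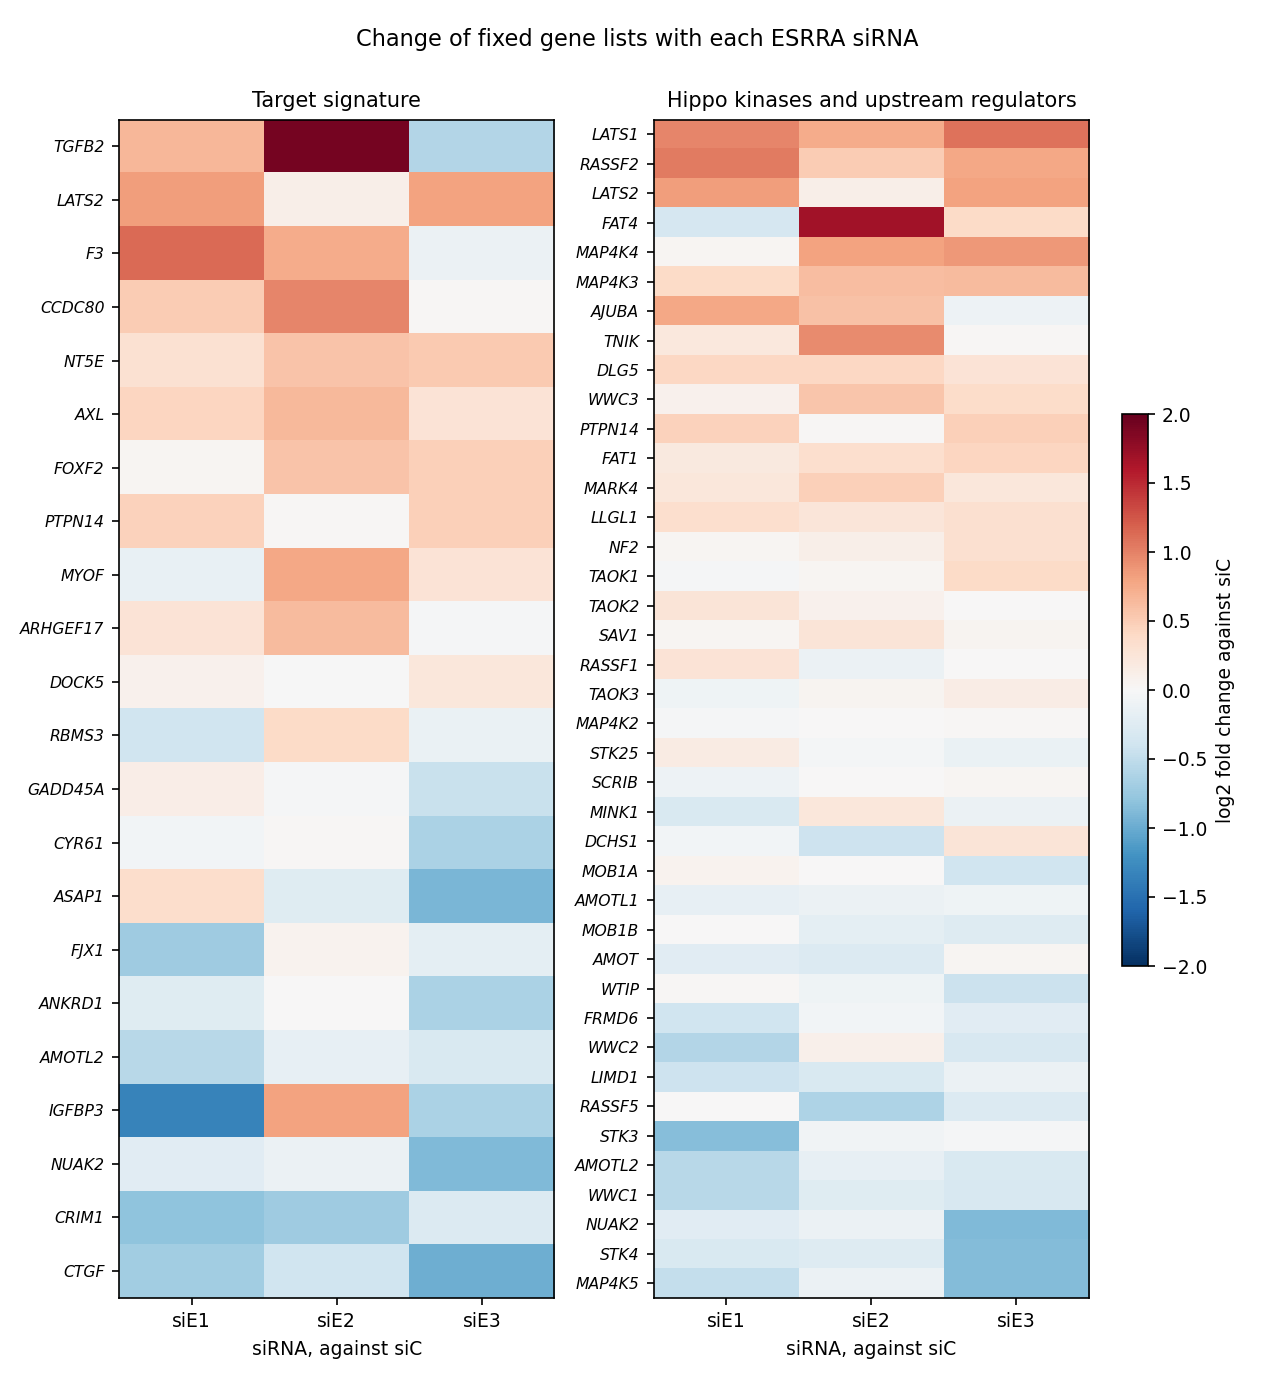
Log2 fold change against siC (colour, from -2 to 2) with siE1, siE2 and siE3 for the 22 signature genes (left) and the 40 tested genes of the Hippo kinase list (right), each ordered by the mean of the 3 values. CTGF is at the bottom of the left panel and LATS1 at the top of the right panel, and TGFB2, FAT4 and IGFBP3 have unlike colours between siRNAs.

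In the Hippo kinase list, 40 of 42 genes were tested, 3 of them among the 10. With siE1 12 rose and 10 fell, with siE2 14 rose and 7 fell, and with siE3 14 rose and 11 fell, with medians of 0.01, 0.04 and 0.03. Among all genes 24.5%, 27.9% and 21.3% were called higher and 25.8%, 28.5% and 20.8% lower in these comparisons, with medians of -0.01, 0.01 and 0.00. LATS1, the partner of LATS2, averaged 53.7 ± 5.61 CPM with siE1, 45.4 ± 3.21 CPM with siE2 and 57.5 ± 2.19 CPM with siE3, against 27.1 ± 1.18 CPM with siC. It rose with each siRNA, by 0.98, 0.74 and 1.08 (edgeR adjusted p = 1.1e-07, 1.8e-06 and 5.9e-08), and with siE2 too, where LATS2 did not pass.

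The kinases upstream of LATS fell in part. STK4 averaged 232 ± 1.94 CPM with siE1, 238 ± 2.04 CPM with siE2 and 156 ± 5.42 CPM with siE3, against 286 ± 0.797 CPM with siC, and fell to log2 fold changes of -0.30, -0.26 and -0.87 (edgeR adjusted p = 2.3e-05, 6.8e-05 and 8.7e-10). Its paralog STK3 fell with siE1 to a log2 change of -0.85 (SE 0.0674, edgeR adjusted p = 7.0e-08), and was at -0.07 and -0.03 with siE2 and siE3 (edgeR adjusted p = 0.38 and 0.75). The difference in STK3 for siE1 against siE3 was -0.82 (SE 0.0675, edgeR adjusted p = 1.2e-07). The scaffold SAV1 rose with siE2 by 0.25 (SE 0.0623, edgeR adjusted p = 0.0028), a call lost without siE2 replicate 1, where it was 0.18. SAV1 was at 0.04 with siE1 and 0.06 with siE3 (edgeR adjusted p = 0.66 and 0.45).

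The MAP4K kinases, which can act on LATS in parallel to STK3 and STK4, also went both ways. MAP4K3 rose by 0.38, 0.61 and 0.64 with siE1, siE2 and siE3 (edgeR adjusted p = 1.3e-04, 7.2e-07 and 8.6e-07). MAP4K4 rose by 0.80 and 0.86 with siE2 and siE3 (edgeR adjusted p = 3.5e-10 for both) and was at 0.04 with siE1 (edgeR adjusted p = 0.42). MAP4K5 fell to log2 fold changes of -0.48 and -0.86 with siE1 and siE3 (edgeR adjusted p = 4.4e-07 and 1.8e-09). With siE2, MAP4K5 was at -0.11 (edgeR adjusted p = 0.044), which did not pass without any library of siE2 or siC (0.067 to 0.2) or with the replicate number as a block (0.069). AJUBA, a LIM protein that binds LATS kinases, rose by 0.77 and 0.59 with siE1 and siE2 (edgeR adjusted p = 6.0e-09 and 8.0e-08). With siE3 it was at -0.10 (edgeR adjusted p = 0.13). NF2, or merlin, which recruits LATS to the membrane, rose with siE3 by 0.32 (edgeR adjusted p = 0.0014). It was at 0.04 with siE1 and 0.12 with siE2 (edgeR adjusted p = 0.62 and 0.13).

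Of 22 partners and coregulators of YAP and TAZ, 19 were tested, YAP1, WWTR1 and TEAD1 among them. In each of the 3 comparisons 9 rose, while 3, 3 and 2 fell with siE1, siE2 and siE3, and the medians were 0.17, 0.13 and 0.16, against shares of all genes of 24.5%, 27.9% and 21.3% higher and 25.8%, 28.5% and 20.8% lower and medians of -0.01, 0.01 and 0.00. RUNX2, a transcription factor that can bind YAP and TAZ, averaged 15.3 ± 0.469 CPM with siE1, 31.1 ± 4.66 CPM with siE2 and 25.1 ± 3.64 CPM with siE3, against 11.9 ± 0.502 CPM with siC. It rose by 1.39 and 1.08 with siE2 and siE3 (edgeR adjusted p = 1.1e-07 and 3.8e-06). Its siE1 value of 0.37 (edgeR adjusted p = 0.025) did not pass when any library of siE1 or siC was left out (0.055 to 0.11). The signal transducer SMAD2 rose by 0.48, 0.31 and 0.55 with siE1, siE2 and siE3 (edgeR adjusted p = 1.3e-05, 5.9e-04 and 4.8e-06). RUNX1, a paralog of RUNX2, rose by 0.79 and 0.48 with siE2 and siE3 (edgeR adjusted p = 3.2e-06 and 6.9e-04). Its siE1 value of 0.34 (edgeR adjusted p = 0.0068) did not pass without siC replicate 1 (0.071). The chromatin remodeller SMARCA4 fell to log2 fold changes of -0.67 and -0.25 with siE1 and siE2 (edgeR adjusted p = 6.3e-08 and 6.7e-04) and was at -0.05 with siE3 (edgeR adjusted p = 0.46).

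Of the TEAD cofactors of the vestigial-like family, VGLL3 and VGLL4 were tested. VGLL3 averaged 10.7 ± 1.42 CPM with siE1, 12.1 ± 0.842 CPM with siE2 and 3.94 ± 0.601 CPM with siE3, against 6.46 ± 0.414 CPM with siC. VGLL4, which competes with YAP for TEAD, averaged 15.9 ± 1.03 CPM with siE1, 23.5 ± 0.884 CPM with siE2 and 31.6 ± 0.654 CPM with siE3, against 19.2 ± 2.36 CPM with siC. VGLL3 thus was lowest with siE3, where VGLL4 was highest. VGLL3 rose by 0.72 and 0.90 with siE1 and siE2 and fell to a log2 change of -0.71 with siE3 (edgeR adjusted p = 4.5e-04, 3.7e-05 and 0.0024). VGLL4 rose with siE3 by 0.72 (SE 0.0893, edgeR adjusted p = 1.1e-05). With siE2 it was at 0.29 (edgeR adjusted p = 0.014), which did not pass without siC replicate 2, where it was 0.16 (0.21), or siE2 replicate 2 (0.092). With siE1 it was at -0.27 (edgeR adjusted p = 0.028), which did not pass without siC replicate 1, where it was -0.15 (0.3), or siE1 replicate 2 (0.19).

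In STRIPAK, a phosphatase complex that dephosphorylates STK3 and STK4 and so damps the pathway, 19 of 20 genes were tested. With siE1 4 rose and 6 fell, with siE2 10 fell, and with siE3 4 rose and 9 fell, with medians of -0.06, -0.17 and -0.14. Over all genes the shares called higher were 24.5%, 27.9% and 21.3%, those called lower 25.8%, 28.5% and 20.8%, and the medians -0.01, 0.01 and 0.00. The siE3 count fell to 6 in all without siC replicate 2, and the siE1 count to 5 without siC replicate 1 and 6 without siE1 replicate 1. Counts of calls over all genes also changed when a library was left out. SIKE1, which links STK3 and STK4 to the complex, fell with siE1 and siE3 to log2 fold changes of -0.45 and -0.60 (edgeR adjusted p = 2.3e-06 and 1.7e-07). It was at 0.01 with siE2 (edgeR adjusted p = 0.88). The catalytic subunit PPP2CA fell with siE2 and siE3 to log2 fold changes of -0.18 and -0.45 (edgeR adjusted p = 0.0034 and 1.4e-06). With siE1 it was at 0.08 (edgeR adjusted p = 0.16). STK24, a kinase of the complex, fell with siE2 to a log2 change of -0.17 (SE 0.0434, edgeR adjusted p = 0.0032). It was at -0.11 with siE1 and -0.16 with siE3 (edgeR adjusted p = 0.039 and 0.0089). The siE1 value did not pass with the stricter filter (edgeR adjusted p = 0.059) or the replicate block (0.057). The siE3 call was lost without siE3 replicate 1, where the value was -0.12, or without siC replicate 2, where it was -0.15. The scaffold subunit PPP2R1A fell with siE2 and siE3 to log2 fold changes of -0.33 and -0.43 (edgeR adjusted p = 1.6e-05 and 1.9e-06). The other catalytic subunit, PPP2CB, rose with siE1 and siE3 by 0.33 and 0.34 (edgeR adjusted p = 7.3e-05 and 7.9e-05). PPP2R1A was at 0.15 with siE1 and PPP2CB at -0.18 with siE2 (edgeR adjusted p = 0.012 and 0.0072).

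Of the 11 genes of the CCN and thrombospondin families, WISP1, WISP2, WISP3, THBS2 and COMP had at most 9 counts in any library and were not tested. NOV, the third classical CCN gene, averaged 13.9 ± 0.574 CPM with siE1, 24.6 ± 2.51 CPM with siE2 and 12.5 ± 1.18 CPM with siE3, against 10.0 ± 0.291 CPM with siC. It rose with siE1 by a log2 value of 0.48 (edgeR adjusted p = 0.0022) and with siE2 to a linear fold of 2.46 (edgeR adjusted p = 6.2e-08), opposite to CTGF. Its siE3 value of 0.33 (edgeR adjusted p = 0.031) did not pass without siC replicate 1 (0.07), siC replicate 2 (0.14) or siE3 replicate 2 (0.22). THBS3 rose with siE2 by 1.48 (SE 0.198, edgeR adjusted p = 1.3e-05) and was at 0.15 with siE3 (edgeR adjusted p = 0.65). Its siE1 value of 0.64 (edgeR adjusted p = 0.022) did not pass with DESeq2 (DESeq2 adjusted p = 0.091). That call was also lost without siC replicate 1, siE1 replicate 1 or siE1 replicate 2, where the value was 0.37, 0.61 and 0.68. THBS4 averaged -0.37 over the siRNAs (SE 0.408, edgeR adjusted p = 0.47).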

How the data were processed

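RNA from 8 libraries was sequenced. Build hg19 and the tools TopHat (1.3.3), HTSeq and DESeq are listed, with no order, per the submitters' processing notes. Gene annotation: not given in the sources used here. The authors' deposited count values are raw whole numbers per gene symbol, and the deposited fold (a linear ratio) and adjusted p-value columns per siRNA were copied only where named. Groups and replicate numbers came from sample titles.

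edgeR 4.0.16 in R 4.3.3 (filterByExpr, TMM, quasi-likelihood test) was fitted once to the 8 libraries with 1 mean per siRNA, which left 4 residual degrees of freedom, over 13395 genes. SE is the log2 fold change over the root of F. The biological coefficient of variation was 4.08%. Replicates differed beyond sampling noise (chi-square per degree of freedom 3.10 to 5.16). Counts were simulated for siE2 against siC over 13113 genes, with 200 changed genes and a common dispersion for all. Of seeded changes of 0.25, 0.5, 1 and 2 (log2), 32%, 82%, 82% and 98% were recovered, and 5.77% of calls were false. In the data, 27.9% of genes were called higher and 28.5% lower with siE2, so these rates need not hold there.

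The 10 genes and 5 lists (117 entries) were chosen with earlier results of these data known. Named from lists were up to 6 genes with the smallest p in the average of the 3 siRNAs, the 5 genes most like THBS1 and CTGF, plus TEAD2, TEAD3, TEAD4, STK3, STK4, SAV1, LATS1, NF2, VGLL3 and VGLL4. Not every gene that this rule picks is reported here. FAT4 was named in a caption after its values were seen. Other settings tried were 2 other filters, library size as the only scaling, DESeq2 size factors, DESeq2 1.42.0, limma-voom (limma 3.58.1), only the groups compared, a replicate block and leaving out each library. Promoters came from RefSeq and overlapping genes from GENCODE v29. Figures used Python 3.11.15 and matplotlib 3.10.9.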

Additional observations from a re-analysis of the deposited data

Results flagged for a closer look

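Genes named in the report whose calls against siC had opposite signs under 2 siRNAs, with the difference between those siRNAs also called (edgeR adjusted p below 0.05), were set apart. THBS1 belongs here by its values, with a log2 difference of 2.82 for siE2 against siE3, both libraries of siE2 above and both of siE3 below the controls, and the difference was not tested because this pattern chose the gene. IGFBP3 differed by -2.14 for siE1 against siE2 and 1.45 for siE2 against siE3, and TGFB2 by 1.23 for siE1 against siE3 and 2.50 for siE2 against siE3. VGLL3 differed by 1.42 for siE1 against siE3 and 1.61 for siE2 against siE3. VGLL4 differed by -0.56 for siE1 against siE2 and -0.99 for siE1 against siE3, but its siE1 value of -0.27 did not pass without siC replicate 1 (edgeR adjusted p = 0.3) or siE1 replicate 2 (0.19), and its siE2 value of 0.29 did not pass without siC replicate 2 (0.21) or siE2 replicate 2 (0.092). Of the phosphatase subunits, PPP2R1A differed by 0.47 for siE1 against siE2 and 0.58 for siE1 against siE3, and its siE1 value of 0.15 did not pass without siC replicate 1 (edgeR adjusted p = 0.11) or siE1 replicate 1 (0.16). PPP2CB differed by 0.51 for siE1 against siE2 and -0.52 for siE2 against siE3, and its siE2 value of -0.18 did not pass without siE2 replicate 1 (edgeR adjusted p = 0.099).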

How the results depend on the processing

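The counts of called genes, over all genes and over the 9 tested members, stayed within 1.5 times their value under the alternatives run. Counts over all genes also moved when a library was left out, so the ranges of called members are not read as a trait of the members. Leaving out each library gave 5 to 7 called members with siE1, 4 to 5 with siE2, 8 with siE3, 7 to 8 in the average, 4 to 6 for siE1 against siE2, 7 for siE1 against siE3 and 7 to 8 for siE2 against siE3. There were 1110 pairs of a member's value and an alternative, with THBS1 included. Of these, 1069 kept direction and call, 18 lost the call, 6 gained it and 17 changed sign. Apart from siE1 against siC, the THBS1 pairs carry no weight, because its pattern chose the gene. The sign changes were all of uncalled values near 0. With library size only, YAP1 and ANKRD1 with siE2 were both at 0.04 and AMOTL1 for siE2 against siE3 at 0.02. With the stricter filter YAP1 and ANKRD1 with siE2 were both at 0.02, and with only the groups compared at 0.00. Leaving out each library in turn, YAP1 with siE2 ran from -0.09 to 0.08, ANKRD1 with siE2 from -0.08 to 0.08, CYR61 with siE1 from -0.14 to 0.03 and with siE2 from -0.03 to 0.10, YAP1 for siE1 against siE2 from -0.14 to 0.02 and LATS2 for siE1 against siE3 from -0.05 to 0.10. The cause was not tested.

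Calls of members lost under other settings, beside those in the report, are AMOTL1 in the average with library size only (edgeR adjusted p = 0.08), the stricter filter (0.058), DESeq2 (0.078) and without siE1 replicate 1 (0.066) or siE2 replicate 1 (0.088), WWTR1 for siE1 against siE2 without siE1 replicate 2 (edgeR adjusted p = 0.057) or siE2 replicate 1 (0.085) and AMOTL2 for siE2 against siE3 without siE2 replicate 2 (0.1). Of 555 pairs of a list count and an alternative, 6 moved beyond 1.5 times. Libraries with the same replicate number did not deviate together (r of -0.17 to 0.08 between groups), so the number is not taken as pairing. With the replicate block, AMOTL1 in the average lost its call and no other member did (edgeR adjusted p = 0.059). With 2 libraries per group, a change of 0.25 on the log2 scale was recovered in 32% of simulated cases. Where the mean count reached 100, it was recovered in 40%. The simulation held 200 changed genes, a far smaller share than was called in the data, so its recovery need not describe this fit.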
